A study of Mus musculus with 4 samples.

Results

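The renin angiotensin system was followed in whole mouse kidneys at E18.5 through 5 listed genes, Agt, Ren1, Ace, Agtr1a and Agtr2, found by symbol in the gene tables of 4 RNA sequencing libraries. Of 22662 gene names joined across the tables, 4 were listed genes with rows of their own, and renin was present in 1 joint row named Ren1,Ren2 that pools near-identical genes. The 2 mutant libraries came from Hnf4a c/c ; Six2GFPcre kidneys, in which both alleles of the nuclear receptor gene Hnf4a were conditional. The 2 control libraries came from Hnf4a c/+ ; Six2GFPcre kidneys, with 1 conditional allele. Both groups carried Six2GFPcre, a Cre driver of nephron progenitors, so control nephrons may have kept a single copy of Hnf4a. The stroma, vessels and renin cells arise outside the Six2 lineage. The strain was labelled mixed, and the labels do not say which animals or how many gave each library, and each p-value covers only how far these libraries spread, which may be technical.

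Renin, a protease of the juxtaglomerular cells of the afferent arteriole, cuts angiotensinogen (Agt) to angiotensin I, and angiotensin-converting enzyme (Ace), held on endothelium and on the proximal tubule brush border, trims this to angiotensin II. Angiotensin II acts through the AT1 receptor (in mice Agtr1a and Agtr1b), which raises blood pressure and salt retention, and through the AT2 receptor (Agtr2), which is prominent in fetal tissue. In humans, loss of angiotensinogen, renin, converting enzyme or the AT1 receptor causes renal tubular dysgenesis, in which proximal tubules do not form properly.

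Expression was read as FPKM (fragments scaled for transcript length and for library size), which allows levels of different genes to be set side by side. Between 13552 and 13646 named genes reached 1 FPKM per library. Read totals are not part of the tables, and depth could not be used. Y-linked transcripts were seen in the replicate 1 libraries, where Xist was at 0.131 FPKM in the mutant and 0.0789 in the control kidney, whereas the replicate 2 libraries had Xist at 74.0 FPKM in the mutant and 81.0 in the control kidney. Each group thus held 1 library of either pattern, which matters for the X-linked gene Agtr2. Hnf4a itself was at 87.1 and 78.5 FPKM in mutant and 89.3 and 84.6 in control libraries. This value spans the whole gene. Which exons the conditional allele loses is not stated in the labels, and the level is no check of genotype. Nephron markers were present in all libraries, with Six2 between 49.9 and 67.0 FPKM.

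Ace was the member with the largest difference, with a mean in mutant kidneys at 32.5% of control, while Agt was higher, and renin and Agtr1a overlapped between the groups. None of the 5 members passed the test across all genes (limma on log2(FPKM + 1), Benjamini-Hochberg adjusted p under 0.05): 0 of 5 were called, where 0.158% of 13287 tested genes were. At an unadjusted p under 0.05, 2 members were counted, Ace and Agt, against 7.24% of tested genes. The groups did not overlap for 3 members, Ace, Agt and Agtr2, against 39.8% of tested genes. Lists of pathway genes and cell markers are given below by the number of their tested genes called over all genes in the same fit. Among those described with 0 called, the count at an unadjusted p under 0.05 was also 0, except for the peptidases (2) and the stromal markers (1 higher and 1 lower). All 5 members passed the filter on low values, which asked for 1 FPKM or more in 2 or more libraries. With 2 libraries a group, an exact permutation test of a single gene cannot give a two-sided p below 0.333.

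**Figure D1:**
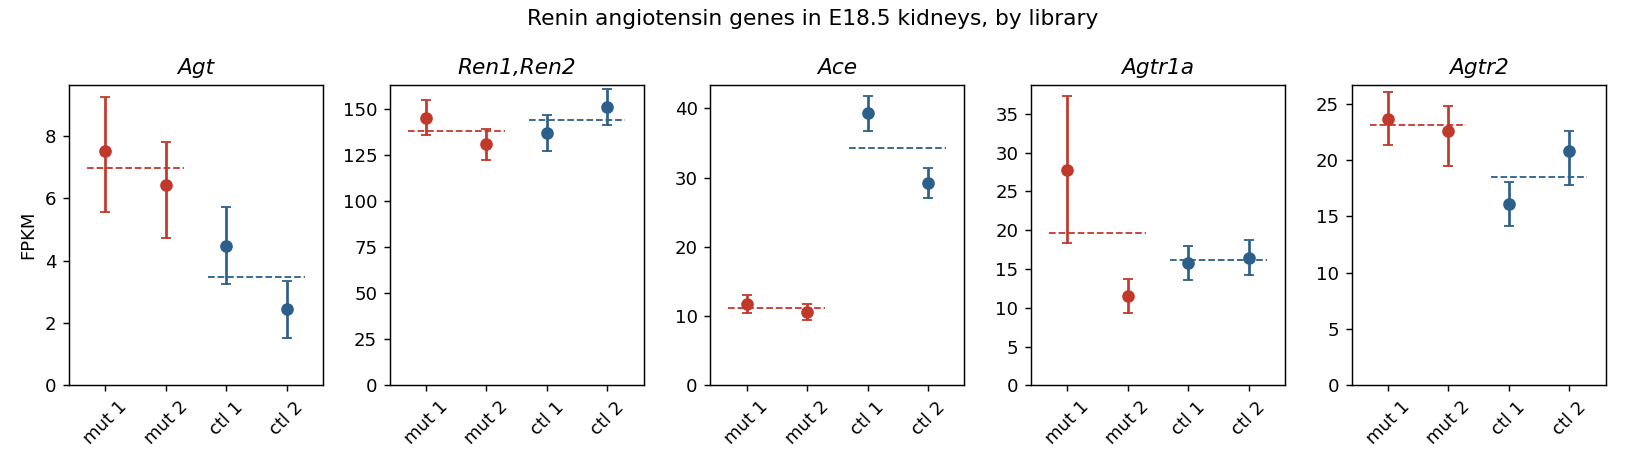
FPKM of each member (vertical axis, from 0) in mutant replicates 1 and 2 (red) and control replicates 1 and 2 (blue); bars are the interval that the authors' tables give for each library and dashed lines the group means. Ace sits at 11.7 and 10.6 FPKM in mutant libraries against 39.3 and 29.2 in control libraries, and Agtr1a has its highest and its lowest value in the mutant libraries.

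In each of the 4 libraries renin was by far the most abundant member and Agt the least. In both mutant libraries Ace stood below both receptors, whereas in both control libraries it stood above both. Some neighbours in this order did not differ beyond their spread. Ace and Agtr1a averaged 11.1 ± 0.792 and 19.7 ± 11.5 FPKM in mutant libraries, and in mutant replicate 2 they were at 10.6 and 11.6 FPKM with overlapping intervals in the authors' table (9.43 to 11.7 and 9.32 to 13.7), so the place of Ace below Agtr1a rested on mutant replicate 1. Agtr2 and Agtr1a also did not differ beyond their spread and averaged 23.1 ± 0.758 and 19.7 ± 11.5 FPKM in mutant and 18.46 ± 3.30 and 16.1 ± 0.458 FPKM in control libraries (errors are SD with n = 2 per group throughout).

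Agt, the substrate from which all angiotensins are cut, was at 7.51 and 6.42 FPKM in the mutant libraries against 4.49 and 2.45 FPKM in the control libraries. Both mutant libraries lay above both control libraries, and the control values were slightly farther apart than the nearest mutant and control values. The means were 6.97 ± 0.776 FPKM in mutant and 3.47 ± 1.44 FPKM in control libraries, a log2 change of 0.87 (SE 0.27) that did not pass the test (limma adjusted p = 0.591). The log2 change was 0.63 between the replicate 1 libraries and 1.10 between the replicate 2 libraries. Without control replicate 2 it was 0.53. The row lies at mm9 chr8:127080487-127093607 and no other row of the tables overlapped it.

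Liver makes most circulating angiotensinogen, and liver transcripts differed between libraries. The summed level of the 6 liver markers was 35.9 and 85.0 FPKM in the mutant libraries and 43.3 and 49.7 FPKM in the control libraries, with 0 of 5 tested markers called, and none of the 6 was at 0 in all libraries. Albumin (Alb) was at 1.11 and 21.1 FPKM in mutant and 0.295 and 1.09 FPKM in control libraries, so mutant replicate 2 stood apart. All 6 markers were higher in mutant replicate 2 than in mutant replicate 1, and 5 of the 6 had their highest value there. The share of all tested genes higher in mutant replicate 2 was not counted. Apoa1, the main protein of high-density lipoprotein, was at 1.40 and 8.59 FPKM in mutant and 1.04 and 1.20 FPKM in control libraries. Fgb was at 2.29 and 4.39 FPKM in mutant and 1.09 and 2.05 FPKM in control libraries (limma adjusted p = 0.760). Its log2 change was 0.66 between the replicate 1 libraries and 0.82 between the replicate 2 libraries. The groups did not overlap for 4 of the 5 tested markers, against 39.8% of all tested genes. The median log2 change of the list was 0.74. Alpha-fetoprotein (Afp), the most abundant of the 6, was at 25.2 and 40.3 FPKM in mutant and 25.8 and 33.8 FPKM in control libraries and overlapped. Transthyretin (Ttr) went the other way between the groups, at 5.51 and 9.75 FPKM in mutant and 14.7 and 10.9 FPKM in control libraries (limma adjusted p = 0.743). Agt was at 7.51 FPKM in mutant replicate 1 and 6.42 FPKM in mutant replicate 2, and without mutant replicate 2 its log2 change was 0.97. The part of liver transcripts in the Agt values was not tested.

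**Figure D2:**
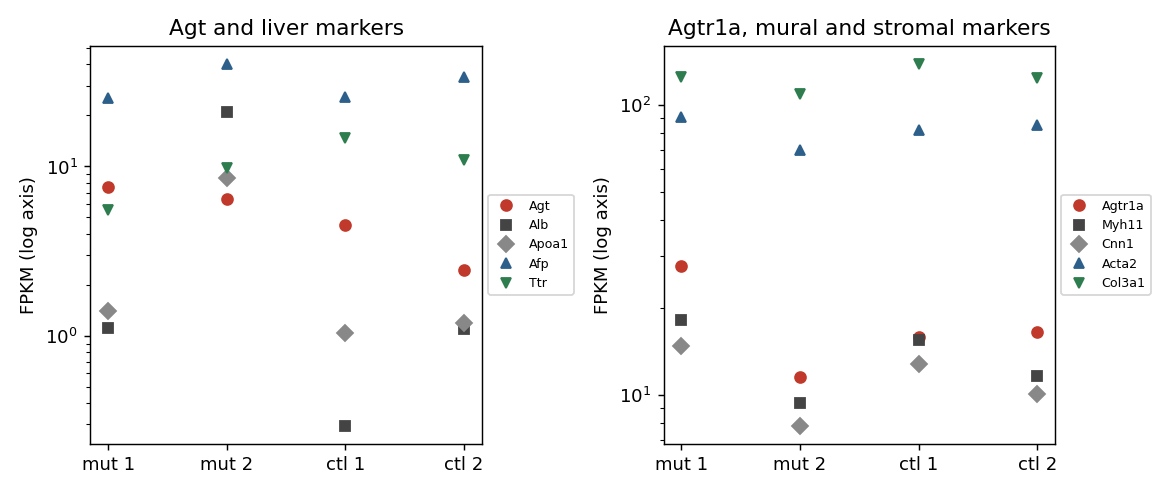
FPKM on a log axis in mutant replicates 1 and 2 and control replicates 1 and 2, for Agt with liver markers (left) and for Agtr1a with mural and stromal markers (right). Alb and Apoa1 are high in mutant replicate 2 alone, at 21.1 and 8.59 FPKM, while Agt is at 7.51 and 6.42 FPKM in both mutant libraries. The liver marker Fgb, not shown, was higher in both mutant libraries than in both control libraries. Of the markers at right, Myh11, Cnn1 and Acta2 are, like Agtr1a, highest in mutant replicate 1 and lowest in mutant replicate 2. Of the mural and renin cell markers not shown, Tagln had this order too and the rest did not. Col3a1 is highest in control replicate 1, at 138 FPKM.

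Renin transcripts were abundant in both groups. The joint Ren1 and Ren2 row (mm9 chr1:135247143-135256900) was at 145 and 131 FPKM in mutant and 137 and 151 FPKM in control libraries. These values overlapped, with means of 138 ± 10.2 FPKM in mutant and 144 ± 10.1 FPKM in control libraries, and the 95% interval of the log2 change ran from -0.31 to 0.19 (estimate -0.06, limma adjusted p = 0.868). The change was positive between the replicate 1 libraries (0.09) and negative between the replicate 2 libraries (-0.21). Strains of mice differ in carrying Ren2, and reads of near-identical copies cannot be told apart, so the row is the sum of renin transcripts and says nothing of either gene alone.

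Genes that govern renin or mark the cells that make it were likewise not called. Of 19 genes listed as regulators of renin, 17 were tested, 0 were called, and the median log2 change was -0.05, against 0.02 over all tested genes. Akr1b7, an aldo-keto reductase that marks renin cells in mice, was at 18.3 and 26.6 FPKM in mutant and 16.3 and 23.0 FPKM in control libraries. In both groups replicate 2 was the higher. Gja5, the connexin that couples juxtaglomerular cells, was at 10.5 and 13.4 FPKM in mutant against 14.0 and 11.4 FPKM in control libraries. Ptgs2, the cyclooxygenase whose prostaglandins stimulate renin release, was between 1.11 and 1.83 FPKM in every library. Nos1 was lower in both mutant libraries, at 1.79 and 2.33 FPKM against 2.92 and 2.36 FPKM in control libraries (limma adjusted p = 0.768). The groups did not overlap for 4 of the 17 tested regulators, against 39.8% of all tested genes. The widest differences were those of the paired acetyltransferases of the cAMP response: Ep300 was at 35.9 and 22.3 FPKM in mutant and 19.8 and 17.3 in control libraries, and Crebbp at 11.8 and 9.53 FPKM in mutant and 15.9 and 13.0 in control libraries (limma adjusted p = 0.741 and 0.727). An unnamed row at 30.4 FPKM overlaps that of Ep300 in control replicate 1 alone, and the reads of Ep300 there are uncertain for that reason.

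Ace was lower in both mutant kidneys. Its row (mm9 chr11:105829259-105851278) gave 11.7 and 10.6 FPKM in mutant and 39.3 and 29.2 FPKM in control libraries. The groups were far apart, and the control libraries differed from each other more than the mutant libraries did. The mean was 11.1 ± 0.792 FPKM in mutant libraries, 32.5% of the 34.2 ± 7.10 FPKM in control libraries. The log2 change was -1.52 (SE 0.17, 95% interval -1.98 to -1.07) and held the 77th smallest p of 13287 genes (unadjusted p = 0.000567). The adjusted p of 0.0978 missed the threshold of 0.05 and lay under 0.1, where 0.595% of genes were called. The log2 change was -1.67 between the replicate 1 libraries and -1.38 between the replicate 2 libraries. The predicted gene Gm11651 overlaps the Ace row and was listed at 0 in all 4 tables.

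Ace has a pair of transcription starts in RefSeq, an upstream one for the somatic enzyme and one inside the gene, known for the germ-cell form of the testis. The deposited value pools both, since the row carried 2 start-site identifiers and 1 FPKM in each library. The 250 bases before the somatic start are printed because the difference in Ace is the largest among the members, and the last 60 bases before the inner start and before the starts of Agt, Ren1 and Agtr2 are shown for comparison (RefSeq, GRCm38.p6, each 5′ to 3′ on the gene's strand). Capitals mark the TATA box TATAAA, the HNF4 consensus core CAAAGTC and the nuclear receptor half-site AGGTCA on either strand. The promoter table held 4 of the 5 members.
Ace, somatic start, chr11:105967698-105967947, plus strand: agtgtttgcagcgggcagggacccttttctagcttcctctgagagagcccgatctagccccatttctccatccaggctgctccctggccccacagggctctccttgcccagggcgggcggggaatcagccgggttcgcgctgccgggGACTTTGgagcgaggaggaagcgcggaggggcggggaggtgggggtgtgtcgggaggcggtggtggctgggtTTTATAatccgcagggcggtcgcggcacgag
Ace, inner start, chr11:105975129-105975188, plus strand: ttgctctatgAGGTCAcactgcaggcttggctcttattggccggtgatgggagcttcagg
Agt, chr8:124569707-124569766, minus strand: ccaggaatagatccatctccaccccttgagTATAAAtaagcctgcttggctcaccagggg
Ren1, chr1:133350614-133350673, plus strand: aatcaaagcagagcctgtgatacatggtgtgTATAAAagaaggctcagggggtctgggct
Agtr2, chrX:21484564-21484623, plus strand: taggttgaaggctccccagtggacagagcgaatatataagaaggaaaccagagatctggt

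A TATAAA box stood 29 to 31 bases before the start in Ren1, Agt and somatic Ace, on the opposite strand in Ace. It was found in neither the inner Ace window nor the Agtr2 window of 250 bases, and in 12.4% of 32851 promoters of that length. The somatic Ace window held CAAAGTC once, on the opposite strand, starting 103 bases before the start. This core was added to the search after the window had been seen. It occurred in 3.84% of all promoters, and the full consensus CAAAGTCCA, in 0.384% of all, was in none of the members' windows. AGGTCA, in 14.0% of all promoters, was found once, in the inner Ace window, and the HNF1 half-site GTTAAT, in 6.43% of all, in none of them. These matches describe letters and are not evidence of binding.

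Ace is made by proximal tubule and by endothelium, and the markers of these cells differed from each other between the groups. Of 12 proximal tubule markers tested, 1 was called and lower, against 0.113% of all genes: Vil1, the microvillar bundling protein villin, at 6.93 and 6.05 FPKM in mutant and 26.9 and 25.9 FPKM in control libraries. The Usp37 row, at 9.50 to 10.9 FPKM, overlaps that of Vil1 in all 4 tables, and the reads of Vil1 are uncertain for that reason. At an unadjusted p under 0.05, 11 of 12 were lower, against 4.57% of all genes, and the median log2 change was -1.29. Their summed level was 288 and 290 FPKM in mutant and 627 and 532 FPKM in control libraries, with no marker at 0. The changes of the 12 ran from -1.87 to -0.07, the last that of Hnf4a itself, the 1 marker not counted at that p. The Ace change of -1.52 lay within this range. Slc22a6 was at -1.56, the endocytic receptor gene Lrp2 at -1.51, its partner Cubn at -1.54 and Slc34a1 at -1.30. An unnamed row overlaps that of Slc34a1 in the control libraries alone, at 8.73 and 7.36 FPKM. Rows of other genes overlap those of the markers Slc3a1 and Slc5a2 in all 4 libraries. The reads of these markers are uncertain for that reason. Of 9 endothelial markers 0 were called, with a median of -0.04 and a summed level of 445 and 450 FPKM in mutant and 449 and 455 FPKM in control libraries. The part of the proximal tubule markers in the Ace difference was not tested. In whole kidney, fewer cells of a type and less RNA per cell cannot be told apart.

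**Figure D3:**
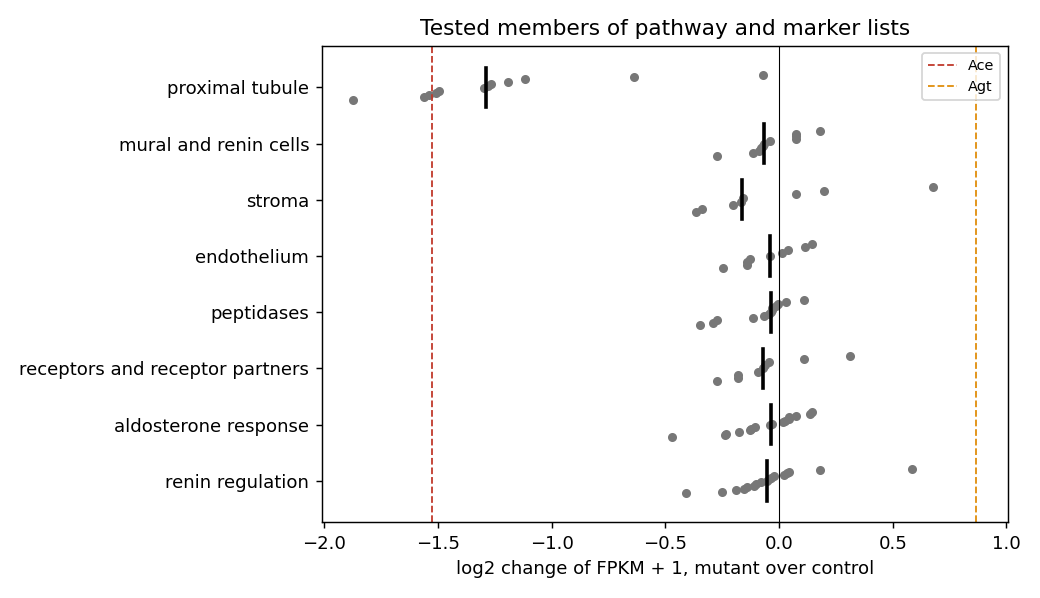
Log2 change of FPKM + 1, mutant over control, of each tested gene (grey points) and its median (black bar) in lists of cell markers and pathway genes; dashed lines mark Ace (red) and Agt (orange). Ace at -1.52 lies among the proximal tubule markers, whose median is -1.29, and outside every other list shown.

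The genes whose values ran most like those of Ace over the 4 libraries, by the root mean square difference of centred log2(FPKM + 1) among 12255 genes, were Mettl7b (0.05), Spink4 (0.05) and Cyp2j13 (0.08). Mettl7b was at 8.35 and 7.54 FPKM in mutant and 29.6 and 20.0 FPKM in control libraries. Cyp2j13, a cytochrome P450, was at 3.87 and 3.81 FPKM in mutant and 14.1 and 9.84 FPKM in control libraries. Spink4 was listed at 0 in both mutant libraries and at 2.20 and 1.44 FPKM in control libraries. As in Ace, control replicate 1 was the highest library in each of them, which their selection by these same values largely fixed. For Agt the nearest were Mkln1os (0.09), Zfp90 (0.13) and Rgs6 (0.13), farther off than those of Ace. Zfp90 was at 27.7 and 30.4 FPKM in mutant and 18.6 and 11.1 FPKM in control libraries.

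The other peptidases that make or break angiotensins, several of them enzymes of the same brush border, did not share the size of the Ace difference. Of 17 listed, 16 had rows of their own, 13 were tested and 0 were called (0.158% of all genes); 11 of the 13 changes were negative, with a median of -0.04 and a range of -0.35 to 0.11. At an unadjusted p under 0.05, 2 were lower, Enpep and Ctsa, against 4.57% of all genes.

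Enpep, the aminopeptidase A that turns angiotensin II into angiotensin III, was at 53.7 and 56.2 FPKM in mutant and 67.6 and 67.4 FPKM in control libraries. Both mutant values lay below both controls, with a log2 change of -0.29 (limma adjusted p = 0.393). Anpep, the aminopeptidase N of the next step, was at 62.2 and 57.0 FPKM in mutant and 94.0 and 61.5 FPKM in control libraries, so that its difference rested mainly on control replicate 1. Mme (neprilysin), which forms angiotensin 1-7, was at 48.2 and 52.3 FPKM in mutant and 49.7 and 51.6 FPKM in control libraries and overlapped. Ctsa, a lysosomal carboxypeptidase able to act on angiotensin I, was at 36.3 and 37.8 FPKM in mutant and 47.3 and 42.8 FPKM in control libraries (limma adjusted p = 0.593). Its row overlaps those of Pltp and Neurl2, and its reads are uncertain for that reason. The cytosolic and lysosomal peptidases Thop1, Nln, Prep, Dpp3, Rnpep, Prcp and Ctsd had changes between -0.06 and 0.11. The mast cell chymase Cma1, which can form angiotensin II without Ace, was at 1.57 and 0.677 FPKM in mutant and 1.56 and 0.615 FPKM in control libraries, and Cma2 was listed at 0 throughout.

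**Figure D4:**
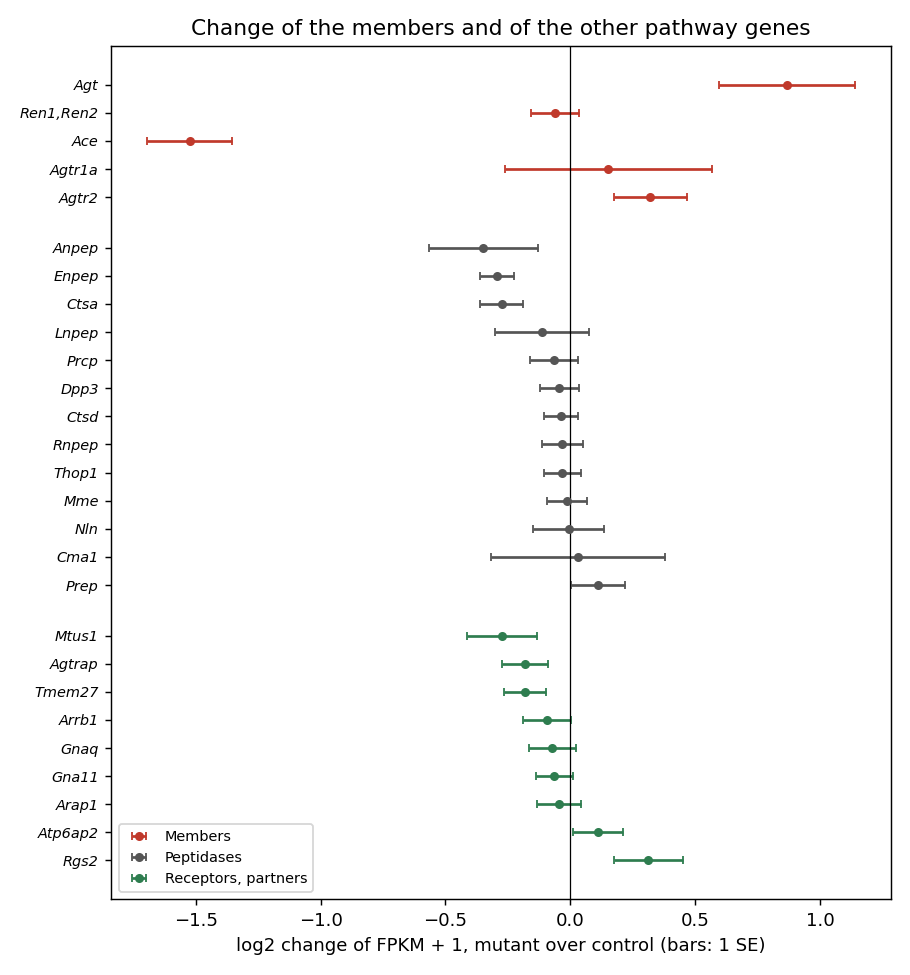
Log2 change of FPKM + 1, mutant over control (horizontal axis), with bars of 1 SE, for the members (red), the tested peptidases (grey) and the tested receptors and their partners (green). Ace at -1.52 and Agt at 0.87 stand outside the range of the peptidases, -0.35 to 0.11, and Agtr1a has the widest bar.

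The AT1 receptor gene Agtr1a, which carries the pressor and growth signals of angiotensin II in stroma and vessels, differed more between the mutant libraries than between the groups. It was at 27.8 and 11.6 FPKM in mutant and 15.8 and 16.4 FPKM in control libraries. The highest and the lowest value both belonged to mutant kidneys. The log2 change was 0.15 with a 95% interval of -0.96 to 1.27 (limma adjusted p = 0.926), 0.78 between the replicate 1 libraries and -0.47 between the replicate 2 libraries. Without mutant replicate 1 it was -0.45, and without mutant replicate 2 it was 0.75. The interval given by the authors' table for mutant replicate 1 ran from 18.3 to 37.3 FPKM, a width of 68.4% of the value, against 27.3% to 38.3% in the other libraries. The row spanned mm9 chr13:30428225-30474736 in all 4 tables.

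Like Agtr1a, 9 of 11 mural and renin cell markers were higher in mutant replicate 1 than in mutant replicate 2, and Cspg4 (8.84 and 12.6 FPKM) and Akr1b7 (18.3 and 26.6 FPKM) were lower. The summed level of the list was 444 and 383 FPKM in mutant and 421 and 425 FPKM in control libraries, with 0 of 11 called and none at 0. The smooth muscle myosin gene Myh11 was at 18.1 and 9.34 FPKM in mutant and 15.5 and 11.6 FPKM in control libraries, and calponin (Cnn1) at 14.8 and 7.84 FPKM in mutant and 12.8 and 10.1 FPKM in control libraries. Acta2 and Tagln, whose row overlaps that of Pcsk7, were likewise highest in mutant replicate 1 and lowest in mutant replicate 2. The rest of the list had other orders. Among them, Pdgfrb and Notch3 were highest in control replicate 1 and Akr1b7 in mutant replicate 2. The summed stromal markers were at 566 and 499 FPKM in mutant and 613 and 559 FPKM in control libraries, with 0 of 8 tested called and none of those with a row at 0. All 8 were higher in mutant replicate 1 than in mutant replicate 2. Between the groups 5 of the 8 changes were negative, with a median of -0.16. Ntn1, the guidance cue netrin 1, was at 37.7 and 36.0 FPKM in mutant and 47.3 and 46.3 FPKM in control libraries (limma adjusted p = 0.344), and the stromal progenitor factor Foxd1 was at 32.8 and 31.9 FPKM in mutant and 38.4 and 36.4 FPKM in control libraries (limma adjusted p = 0.710). In the other direction, Lum, a proteoglycan of collagen matrix, was at 23.3 and 17.4 FPKM in mutant and 11.8 and 12.7 FPKM in control libraries (limma adjusted p = 0.455). The part of these cells in the Agtr1a values was not tested. A lean to mutant replicate 1 was also seen in other lists, at 5 of 5 mast cell, 12 of 18 renin regulation and 10 of 15 peptidase genes. Leukocyte (1 of 7) and aldosterone response genes (6 of 16) leaned the other way. The share over all tested genes was not counted.

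Agtr1b, the other mouse AT1 gene, stayed below 1 FPKM in all 4 libraries, at 0.562 and 0.667 in mutant and 0.419 and 0.757 in control libraries, and was not tested. As a paralog of Agtr1a it may share some reads with it. Mas1, the receptor of angiotensin 1-7, was below 0.2 FPKM in every library, and the row of Airn, at 9.32 to 23.5 FPKM, overlaps it. The related receptor gene Mrgprd was listed at 0 in all of them.

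Agtr2, the X-linked AT2 receptor gene, which opposes many AT1 effects, was at 23.7 and 22.6 FPKM in mutant and 16.1 and 20.8 FPKM in control libraries. The mutant values lay above both controls, but control replicate 2 was closer to them than to the other control. The log2 change was 0.32 (SE 0.15, 95% interval -0.07 to 0.72) and did not pass the test (limma adjusted p = 0.760). It was 0.53 between the libraries with Y-linked transcripts and 0.12 between those with Xist. It was 0.15 without control replicate 1 and 0.49 without control replicate 2. The row lay at mm9 chrX:21061750-21065959, starting 1 base earlier in mutant replicate 1. The ratio of Agtr2 to Agtr1a was 0.851 and 1.96 in mutant and 1.02 and 1.26 in control libraries and overlapped. The ratio of Agt to the joint renin row in FPKM was 0.0518 and 0.0491 in mutant libraries and 0.0328 and 0.0163 in control libraries. Both mutant ratios exceeded both control ratios, by 1.13 on the log2 scale of the ratio (two-sided exact permutation p = 0.333, the smallest that 2 against 2 allows). It was 0.62 without control replicate 2 and 1.63 without control replicate 1.

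**Figure D5:**
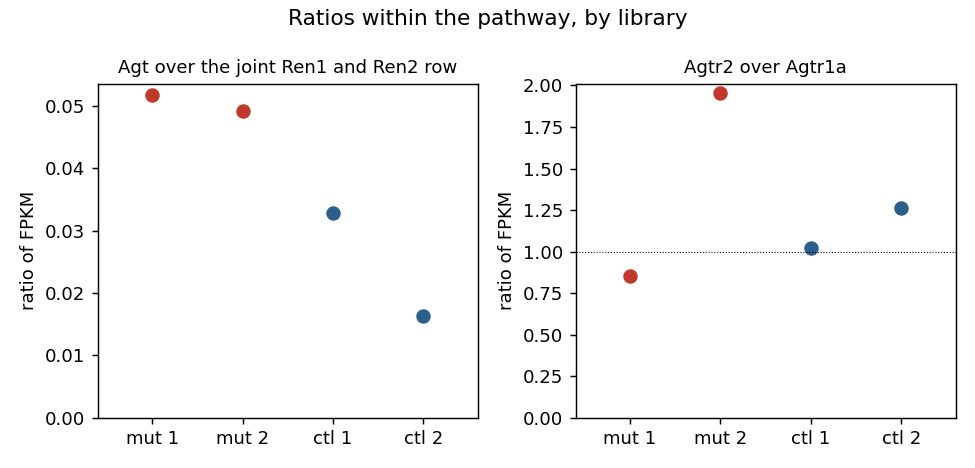
Ratio of FPKM within each library (vertical axes, from 0; dotted line in the right panel at equal levels), mutant replicates in red and control replicates in blue. Agt over the joint renin row is 0.0518 and 0.0491 in mutant against 0.0328 and 0.0163 in control libraries, whereas Agtr2 over Agtr1a overlaps between the groups.

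Partners of these receptors were not called. Of 15 listed receptors and partners, 13 had rows of their own, 9 were tested and 0 were called, with a median of -0.07. The groups did not overlap for 6 of the 9, against 39.8% of all tested genes. Rgs2, which shortens signalling through the G protein of the AT1 receptor, was at 13.1 and 12.1 FPKM in mutant and 9.10 and 10.9 FPKM in control libraries (limma adjusted p = 0.756). Agtrap, which promotes AT1 internalisation, was at 16.8 and 16.9 FPKM in mutant and 19.01 and 19.5 FPKM in control libraries. Both mutant values lay below both controls, with a log2 change of -0.18 (limma adjusted p = 0.764). Mtus1, whose product binds the AT2 receptor, was at 15.1 and 12.2 FPKM in mutant and 16.2 and 17.0 FPKM in control libraries. Atp6ap2, the (pro)renin receptor and an accessory part of the vacuolar proton pump, was at 48.0 and 47.6 FPKM in mutant and 41.0 and 47.7 FPKM in control libraries and overlapped. Tmem27 (collectrin), a brush border protein that supports amino acid transporters, was at 61.4 and 68.1 FPKM in mutant and 75.2 and 71.5 FPKM in control libraries.

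Downstream of angiotensin II, the adrenal hormone aldosterone acts on the distal nephron and collecting duct. Of 16 aldosterone response genes, all tested, 0 were called and the median log2 change was -0.04. The mineralocorticoid receptor Nr3c2 was at 3.26 and 3.37 FPKM in mutant and 3.46 and 2.92 FPKM in control libraries. The kinase Sgk1 was at 47.5 and 48.0 FPKM in mutant and 43.0 and 49.7 FPKM in control libraries. The sodium channel subunit Scnn1g was at 27.2 and 31.1 FPKM in mutant and 27.8 and 24.7 FPKM in control libraries. All 3 overlapped between the groups. Cul3, the ubiquitin ligase scaffold that restrains the WNK kinases, had the widest difference of this list and owed it to control replicate 1, at 46.3 and 49.2 FPKM in mutant and 91.0 and 48.6 FPKM in control libraries. As for adrenal tissue that dissection could carry along, Cyp11b1, Cyp11b2 and Cyp21a1, enzymes of adrenal steroid synthesis, were listed at 0 in all 4 libraries. A listed 0 can be a failed estimate, and the Cyp21a1 row lies under that of Stk19 in control replicate 1. Other adrenal markers were detected. Cyp11a1, also a steroid enzyme, was at 0.348 and 0.676 FPKM in mutant and 0.692 and 0.597 FPKM in control libraries. Mc2r, the 1 adrenal marker that was tested, was at 1.36 and 1.26 FPKM in mutant and 1.16 and 1.24 FPKM in control libraries (limma adjusted p = 0.918). The 9 adrenal markers with rows, 3 of them at 0 throughout, summed to 2.02 and 2.13 FPKM in mutant and 2.14 and 2.57 FPKM in control libraries.

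The kallikrein and kinin genes meet the pathway at Ace, which also destroys bradykinin. Of 5 listed, 3 were tested and 0 were called. The kininogen gene Kng2, whose row overlaps that of Kng1 in control replicate 1 alone, was at 29.9 and 35.6 FPKM in mutant and 29.3 and 30.4 FPKM in control libraries. Bdkrb2, the constitutive bradykinin receptor, was at 1.39 and 1.92 FPKM in mutant and 2.67 and 1.90 FPKM in control libraries. Bdkrb1 was listed at 0 in all 4 libraries, and Klk1 had no row of its own in control replicate 1 and was not compared.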

How the data were processed

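RNA of whole embryonic kidneys was poly(A)-selected and made into sequencing libraries without a stated strand, per the labels' protocols. FPKM values, 1 table per library, were computed and deposited by the authors. The submitters' processing notes name Cufflinks 2.1.1, TopHat2 2.0.11, SAMtools 0.1.19 and Bowtie 1.0.0 and the build mm9. The annotation was not given in the sources used here. Loci were assembled per library, so a row's bounds can move.

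FPKM was summed over rows sharing a symbol. Of 23852 names, 22761 were in all 4 tables, 99 with a row not marked OK were dropped, and joint names were kept. Genes with at least 1 FPKM in at least 2 libraries were tested with limma 3.58.1 in R 4.3.3 on log2(FPKM + 1), which understates changes at low levels (eBayes with trend, group alone, Benjamini-Hochberg, threshold 0.05). The script was tested on simulated data. Confidence intervals of 95% come from the same fit. Ratios had exact permutation tests.

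Members and lists were chosen with earlier results of these data known. All members were named. From each list, any called gene, the 3 largest changes and the 2 highest levels could be named, and not all of them are given. Any detected peptidase or receptor could be named as well. Also named were the 3 genes most like the 2 members with the largest change, leaving out joint names, small RNAs and unnamed models. Other list genes (Cspg4, Foxd1, Gja5, Ptgs2, Lrp2, Myh11, Cnn1, Nr3c2, Sgk1, Scnn1g and the adrenal enzymes) were picked for their role, or Cspg4 for its direction, after their values were seen. Genes of the lists for mast cells, nephron progenitors, leukocytes, erythroid cells and fat were measured as well, and 0 of them were called by limma (at an unadjusted p under 0.05, 1 erythroid gene was higher and 1 lower). A peptidase gene is not reported here and was left out of its list. Alternatives changed the pseudocount, filter, scaling, variance model, row handling, threshold, replicate block and the libraries included.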

Additional observations from a re-analysis of the deposited data

How the results depend on the processing

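Ace was lower under every alternative run, with log2 changes of -1.73 to -1.32 (the same as the range over single libraries left out) and adjusted p between 0.0752 and 0.401. It was called only at a threshold of 0.1, with -1.52 and as the 1 member called. Agt (0.53 to 1.20) and Agtr2 (0.15 to 0.49) kept their direction without passing, and Agtr1a ran from -0.45 to 0.75 and the joint renin row from -0.14 to 0.01 with single libraries left out, renin turning positive without control replicate 2 (0.010) and without mutant replicate 2 (0.014). Agtr2 over Agtr1a ran from -0.42 to 0.78 with single libraries left out, against 0.18. Over all genes, 6 were higher and 15 lower; the higher were 2 with at least 1 FPKM asked in all 4 libraries, 13 at the 0.1 threshold and 0 to 5 with a library left out, and the lower were 35 without a filter, 23 with median scaling, 7 without the trend, 29 with the robust fit, 66 at the 0.1 threshold and 0 to 9 with a library left out. Of list genes, 1 was lower; with a pseudocount of 0.1, the stricter filter, median or upper-quartile scaling, the robust fit or the highest row it was 2, at the 0.1 threshold 6, and without a filter, with quantile normalization, without the trend or with any library left out 0. Under a replicate block, 3 genes were higher and 3 lower, 0 of them in the lists, and Ace had a limma adjusted p of 0.148. Same-numbered libraries deviated together with r = 0.146 across genes, which the labels do not explain. Replicate number also separates the libraries with Y-linked transcripts from those with Xist. A block by replicate thus cannot be told apart from that pattern. The cause of these shifts was not tested, except that fewer libraries leave fewer degrees of freedom. A lone library was assumed to vary like the other group. Depth is unknown and 2 libraries a group limit what can be called.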
